A study of Mus musculus with 6 samples.

Results

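The 56 genes described here are the remaining miRNA-annotated genes found in extracellular vesicles (EVs) of a B cell line. They were selected on measured counts, as the genes of biotype miRNA in the GENCODE M21 annotation with a summed count of at least 1 over all samples. Before this, 8 genes had been set aside, not all of them more abundant. Snord43, with 211 counts, was kept, while miR-5099, with 174, was set aside. Of 2207 genes of this biotype, 64 had a count and 2143 had none in any sample. The 56 genes held 624 counts, 1.04% of the 60240 counts on miRNA-annotated genes. Of the genes set aside, a near-identical family of 6 predicted miRNA genes held 86.9% of those counts, and miR-6236 with miR-5099 held 12.1%.

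WEHI-231 is a mouse B lymphoma line, and its EVs were isolated with the Vn96 peptide after stimulation of 500000 cells in 1 mL for 1 h. Every culture received 10 µg/mL of a primary antibody, either an isotype control or the M1/69 antibody to CD24, together with 5 µg/mL of a secondary antibody. Each group has 3 replicates, all of this single line. In such bulk samples, fewer EVs and less of an RNA per EV cannot be told apart. The total RNA was read on an IonTorrent PGM with neither fragmentation nor removal of rRNA. Barcode 1 marked the isotype libraries and barcode 2 the anti-CD24 libraries, so barcode and antibody cannot be told apart, while libraries of the same replicate number shared a run.

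Depth ran from 166129 to 794185 counts on genes, of which 15626 to 112042 were outside the rRNA and ribozyme genes. The isotype samples were shallower on average, at 417421 ± 309929 (SD, n = 3) counts on genes against 713634 ± 94046 (SD, n = 3) for anti-CD24. Isotype replicate 3, at 763737, was nevertheless deeper than anti-CD24 replicates 1 (610285) and 2 (736432). A single count was therefore worth 1.26 to 6.02 CPM (counts scaled to the total on genes), and the share that 3 counts can show ran from 0.000378% to 0.00181%. Of 9 B cell markers, 8 had counts (57 in all), of 4 T cell markers none had, and all 3 myeloid markers had counts (8 in all). The myeloid counts were 4 in anti-CD24 replicate 1 and 4 in anti-CD24 replicate 2. Erythroid markers had 51 counts, all of the globin genes Hba-a1 and Hbb-bs in anti-CD24 replicate 1.

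A miRNA gene is transcribed into a hairpin, which the nuclease Drosha cuts from the primary transcript and Dicer trims to a short duplex. One strand enters an Argonaute protein and pairs with mRNAs mainly through its seed, bases 2 to 8, which represses them. Mirtrons are an exception, in which splicing of a short intron releases the hairpin without Drosha. The miRNA biotype can also hold genes for other small RNAs, such as tRNAs, which carry amino acids to the ribosome, and box C/D snoRNAs, which guide methylation of rRNA. B cells are known to use miRNAs such as miR-150, miR-155 and the miR-17~92 cluster in their development and activation.

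Most of the counts fell on 4 genes that are not canonical miRNA genes by symbol or sequence, 3 serine tRNA genes and a snoRNA gene. The tRNA genes are n-TStga1 and Gm44456, both on chromosome 13, and n-TSaga9 at chr4:10874064-10874170 on the plus strand of GRCm38. The first 2 genes share a run of 82 bases without a difference, and n-TSaga9 matches that window at 80 of 82 bases. Gm44456 has the symbol of a predicted gene and was placed with the tRNA genes by this run. No other annotated gene overlaps any of the 3.

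Snord43 lies within a 741-base intron of Rpl3, a ribosomal protein gene, at chr15:80082847-80082954 on the minus strand. Capitals mark the letters ATGATGA and CTGA, forms of the box C and box D motifs of snoRNAs, searched on the gene's own strand. This sequence and those of the predicted genes after it are GENCODE M21 transcripts on GRCm38, shown because they tell what the genes hold.
Snord43: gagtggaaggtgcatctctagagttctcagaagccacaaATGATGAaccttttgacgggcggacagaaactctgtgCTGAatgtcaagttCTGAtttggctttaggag
ATGATGA occurred in 11 (0.4995%) and CTGA in 842 (38.2%) of the 2202 miRNA-annotated genes with a transcript sequence. Only 3 of them (0.136%) held ATGATGA with CTGA after it, and of the 56 genes only Snord43 did.

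A further group of 4 predicted genes carries one repeated stretch. The capitals mark 55 bases shared by Gm27509 (chr9:42862051-42862129), Gm23766 (chr10:45095629-45095708) and Gm22402 (chr4:82061112-82061221), of which Gm23060 (chr19:34395647-34395755) holds 47. All 4 are on the minus strand, and no other annotated transcript contained the 55 bases. Shorter runs recur more widely. Gm27509, Gm23766 and Gm22402 each share at least 28 bases in a row with 17 other annotated genes, of which 5 had counts. For Gm23060 it was 12 genes, of which 4 had counts.
Gm27509: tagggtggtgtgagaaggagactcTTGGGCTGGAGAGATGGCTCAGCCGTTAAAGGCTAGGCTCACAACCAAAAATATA
Gm23766: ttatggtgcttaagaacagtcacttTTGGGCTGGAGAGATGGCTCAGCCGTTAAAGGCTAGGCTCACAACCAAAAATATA
Gm22402: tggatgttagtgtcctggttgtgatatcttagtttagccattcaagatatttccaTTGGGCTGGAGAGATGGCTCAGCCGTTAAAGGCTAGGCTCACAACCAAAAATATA
Gm23060: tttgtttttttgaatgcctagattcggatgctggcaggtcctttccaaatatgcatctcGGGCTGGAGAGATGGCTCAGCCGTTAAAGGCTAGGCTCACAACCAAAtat
The shared part forms the 3′ end of the first 3 genes.

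Among the 35 genes with a miRNA name, 30 were matched in the RefSeq table of mature miRNAs (GRCm38.p6), with 52 mature sequences of 18 to 26 bases. The sequences below are RefSeq mature forms of the named genes with the most counts and of miR-16-5p and let-7b-5p, given with the seed in capitals.
miR-877-5p: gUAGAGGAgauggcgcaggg
miR-877-3p: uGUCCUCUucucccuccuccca
miR-6943-5p: uGGGGUGAgguuggaagcua
miR-6943-3p: cUGCUUCCauaccccuacccag
miR-144-3p: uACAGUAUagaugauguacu
miR-29b-3p: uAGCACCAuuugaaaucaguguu
miR-24-3p: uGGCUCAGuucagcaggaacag
miR-505-3p: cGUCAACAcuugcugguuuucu
miR-5119: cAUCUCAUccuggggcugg
miR-16-5p: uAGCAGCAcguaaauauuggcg
let-7b-5p: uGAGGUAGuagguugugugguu
Mir16-1 and Mir16-2 encode the same miR-16-5p, and no other seed was shared between 2 of the matched genes. If the option -I 28 of the trimming step set a minimum read length, as FASTX uses it, all 52 mature sequences were shorter than the shortest read kept. Whether a count came from a mature miRNA, its hairpin or another RNA over the same bases was not tested.

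Snord43, n-TStga1, Gm44456 and n-TSaga9 held 79.3% of the 624 counts, and the other 52 genes held 129. This pooled share is weighted by anti-CD24 replicate 2, which had 331 of the counts. The share was 32.5% in isotype replicate 3, where the other 52 genes held 52 of 77 counts, and 76.1% to 88.7% in the other 5 samples. By class, the 3 serine tRNA genes had 284 counts (45.5%), Snord43 had 211 (33.8%), the 35 named miRNA genes had 70 (11.2%) and the 17 other predicted genes had 59 (9.46%). With the identical counts of n-TStga1 and Gm44456 taken once, the tRNA genes had 155 counts, fewer than Snord43. At the selection threshold, 25 genes had a summed count of 1, next to the 2143 genes at 0. Another 14 genes had 2 counts, 6 had 3, 7 had between 4 and 15, and 4 had more than 15.

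Snord43 was counted in every sample, with 12, 7 and 13 counts in isotype replicates 1 to 3 and 26, 131 and 22 in the anti-CD24 replicates. The highest isotype count was below the lowest anti-CD24 count. Isotype replicates 1 and 2 had lower totals than every anti-CD24 sample, while isotype replicate 3 had a higher total than anti-CD24 replicates 1 and 2. In CPM the isotype values were 37.2, 42.1 and 17.0 and the anti-CD24 values 42.6, 178 and 27.7, so the groups overlapped and anti-CD24 replicate 2 stood above the rest. The mean CPM was 32.1 ± 13.3 (SD, n = 3) with the isotype antibody, and anti-CD24 gave 82.7 ± 82.7 (SD, n = 3). Within the runs the CPM difference, anti-CD24 minus isotype, was 5.38, 136 and 10.7. As a share of the counts outside rRNA and ribozyme genes, the first pair turned the other way, at -0.00294 percentage points. Its host gene Rpl3 had 28 counts on its exons.

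The serine tRNA genes n-TStga1 and Gm44456 had identical counts, 22, 6 and 6 in the isotype samples and 3, 74 and 18 in the anti-CD24 samples. If the tmap option -a 2 reported all best positions of a read, one read may have been counted on both genes. The CPM values of either gene were 68.2, 36.1 and 7.86 after isotype and 4.92, 100 and 22.7 after anti-CD24. The highest and the lowest value both belonged to anti-CD24 samples, and the groups overlapped throughout. Within the 3 runs the CPM difference was -63.3, 64.4 and 14.8. n-TSaga9, with the other anticodon, had 2, 4 and 0 counts and then 3, 12 and 5. Its mean CPM was 10.1 ± 12.5 (SD, n = 3) with isotype, close to the anti-CD24 mean of 9.17 ± 6.21 (SD, n = 3).

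**Figure D1:**
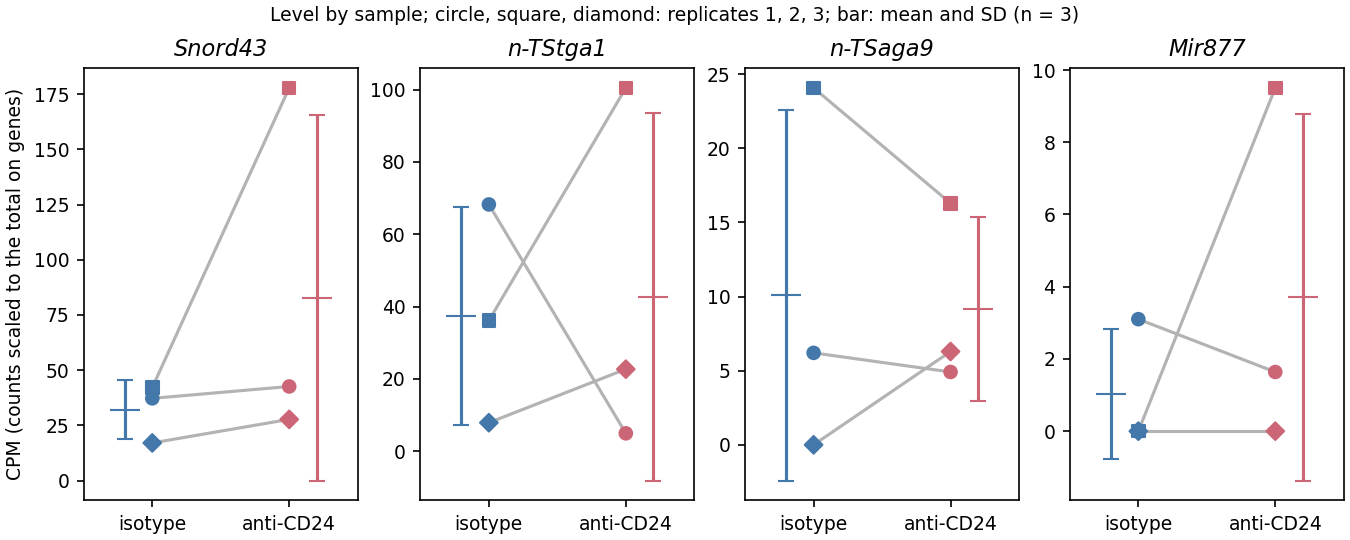
CPM (counts scaled to the total on genes) of 4 genes in each isotype and anti-CD24 sample, with grey lines joining samples of the same replicate number and bars for the mean and SD of 3 samples. In each panel the 2 groups overlap, and anti-CD24 replicate 2 is the highest of all for Snord43 (178), n-TStga1 (100) and Mir877 (9.51).

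The question of the comparison was whether stimulation through CD24 changed what the EVs carry. Of all genes, 1501 had at least 1 CPM in 3 or more samples and were tested with edgeR's quasi-likelihood test. It called 1 gene at a Benjamini-Hochberg adjusted p under 0.05, which is 0.0666% of those tested, and 119 genes (7.93%) had an unadjusted p under 0.05. This background moved with the fit, to 0 genes called and 20 with an unadjusted p under 0.05 with the replicate block, and to 47 of 1119 genes called without anti-CD24 replicate 1. Without anti-CD24 replicate 3 it was 3 of 1285 genes, and without anti-CD24 replicate 2 or isotype replicate 1 it was 0. Only 5 of the 56 genes passed the filter, none was called by edgeR or by DESeq2, and none had an unadjusted p under 0.05 with either tool. The median log2 fold change, anti-CD24 over isotype, was -0.29 over all genes tested.

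Snord43 had a log2 fold change of 1.41 (SE 0.94; edgeR adjusted p = 0.547). It was 1.23 with the run as a replicate block (adjusted p = 0.987). Mir877 had 1.68 (SE 1.64; edgeR adjusted p = 0.683) on 9 counts. For n-TStga1 and Gm44456 it was 0.34 (SE 0.97; edgeR adjusted p = 0.884), and for n-TSaga9 0.49 (SE 1.29; edgeR adjusted p = 0.866). The sign for the tRNA genes turned with DESeq2, which gave -0.30 and -0.22 beside a median over all genes of -0.97, and held without TMM, at 0.21 and 0.15. Relative to the median of all genes, n-TStga1 stood at 0.63 with edgeR and 0.66 with DESeq2. This relative value turned to -0.04 with at least 10 counts summed, -0.31 without isotype replicate 3 and -0.45 without anti-CD24 replicate 2. It stayed positive in the other settings. Without anti-CD24 replicate 2, the value for Snord43 was 0.36 and for n-TStga1 -0.93, while without anti-CD24 replicate 1 Snord43 stood at 2.20 (SE 0.88; unadjusted p = 0.0121, edgeR adjusted p = 0.179). No adjusted p of these fits was under 0.05.

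The predicted genes with the shared stretch were counted mainly in a single library. Gm27509 had 14 counts in isotype replicate 3, 1 in anti-CD24 replicate 2 and 0 in the other 4 samples. Gm23766 and Gm22402 had 9 and 1 in the same samples, with identical counts, and Gm23060 had 3 in isotype replicate 3. Isotype replicate 3 thus held 35 of the 38 counts of these 4 genes, in a library of 763737 counts on genes. Below the CPM filter, they were tested only under other filters. With at least 10 counts summed, Gm27509 had a log2 fold change of -4.17 (unadjusted p = 0.0172, edgeR adjusted p = 0.284), which rests on that 1 library.

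Mir877 was the named miRNA gene with the most counts, 1 in isotype replicate 1, 1 in anti-CD24 replicate 1 and 7 in anti-CD24 replicate 2. It spans the whole of an 85-base intron of Abcf1, a ribosome-associated ATPase gene with 4 counts on its exons, at chr17:35960730-35960814 on the minus strand. Mir6943, at chr13:55453106-55453171 on the plus strand, ends at the 3′ end of an 87-base intron of the kinase gene Grk6 and had 4 counts in isotype replicate 3 and 2 in anti-CD24 replicate 2. Mirtrons lie in such places, and 4 further genes, picked out after their values were seen, had a like position. Mir6974 in Lta, Mir7068 in Cherp and Mir6981 in Arap3 span introns of 83, 74 and 115 bases, and Mir6952 ends an 82-base intron of Scrib. For Mir7068 and Mir6981, other transcripts of Cherp and Arap3 keep the same bases as exon, so their whole sequence is also in the host gene's exons. The 6 genes had 21 counts in all, of which anti-CD24 replicate 2 held 13. Grk6 had 3 counts on its exons.

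**Figure D2:**
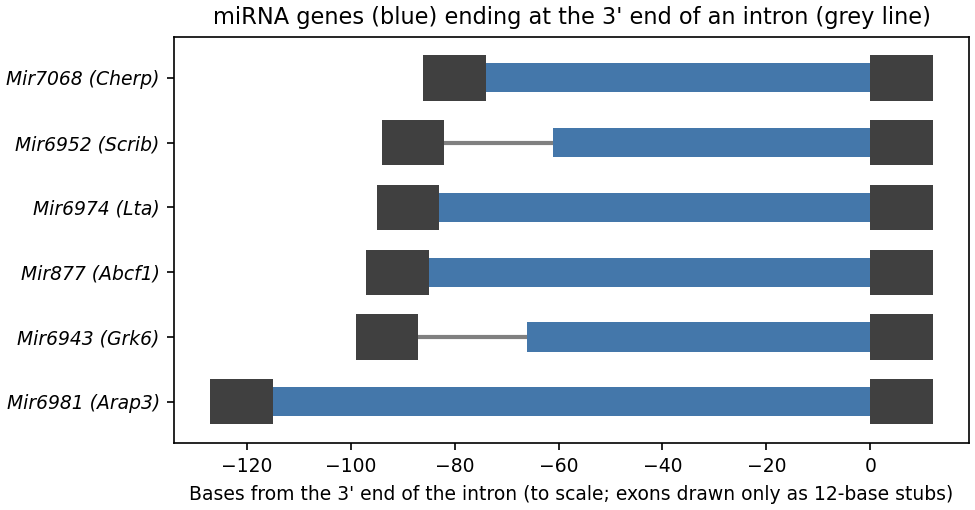
The 6 miRNA genes (blue bars) that end at the 3′ end of an intron (grey line), by distance in bases from that end, with the host gene in brackets and exons as dark stubs. In 4 of the 6 the miRNA gene fills its intron, and introns are 74 to 115 bases long.

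The other named miRNA genes had at most 4 counts each. Mir144, a miRNA gene of red cell precursors, had 1 count in isotype replicate 2 and 3 in isotype replicate 3. Its cluster partner Mir451a had 0 in every sample, and the globin counts stood in anti-CD24 replicate 1, where Mir144 had none. Mir29b-1, whose miRNA represses collagen and DNA methyltransferase mRNAs, had 4 counts, all in isotype replicate 3, beside 0 for its neighbour Mir29a. Mir24-2 had 3 counts, all in anti-CD24 replicate 2, beside 0 for Mir23a and Mir27a of its cluster. Mir505 and Mir5119 had 3 counts each, in anti-CD24 replicate 2 and isotype replicate 1.

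Mir16-1 and Mir16-2, which are paired with Mir15a and Mir15b, each had 2 counts in anti-CD24 replicate 1, and both partners had 0. Their longest common run is 23 bases. Mir3074-2, on the strand opposite Mir24-2, had 2 counts in isotype replicate 2. These genes were named after their values were seen.

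**Figure D3:**
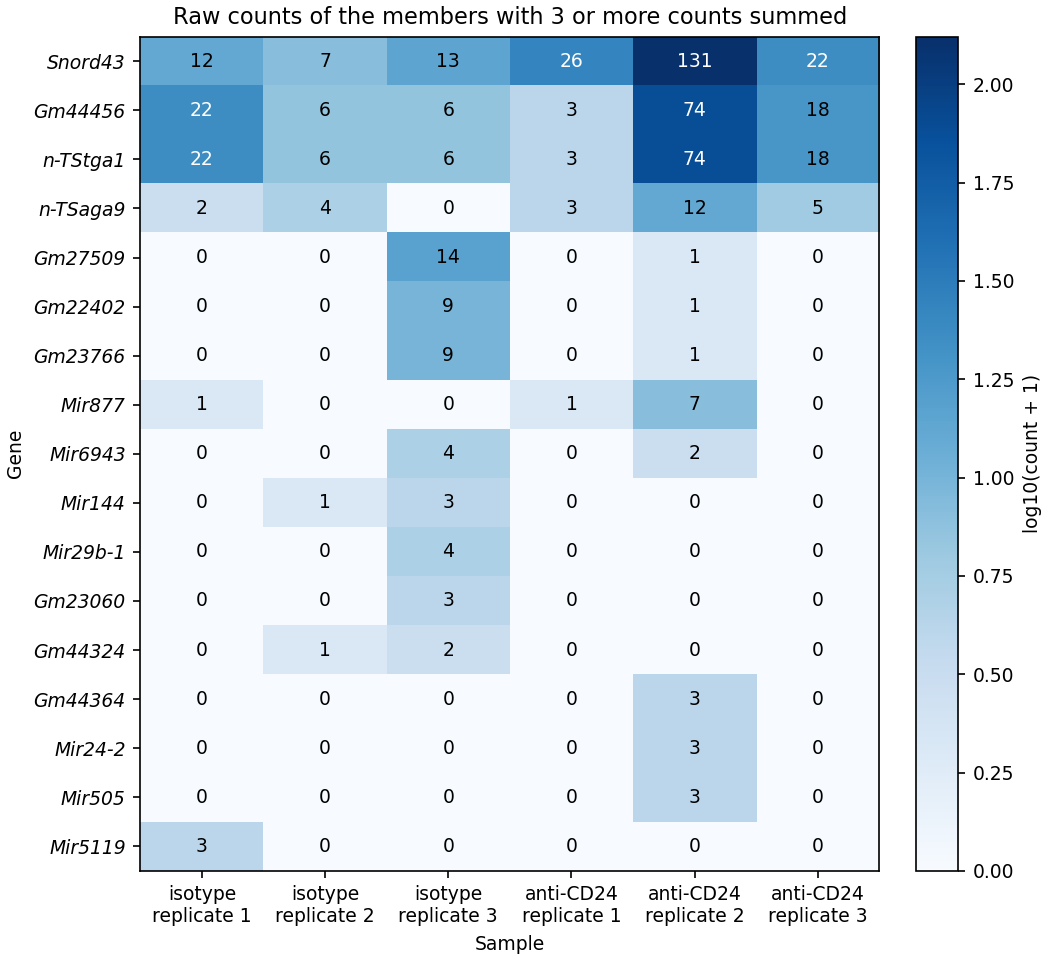
Raw counts of the genes with 3 or more counts summed, one row per gene and one column per sample, with colour for log10 of the count plus 1. Snord43, Gm44456 and n-TStga1 have counts in all 6 columns, and the lower rows are filled mostly in isotype replicate 3 and anti-CD24 replicate 2.

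Genes on the lists of known miRNAs had few counts each. Of 37 miRNA genes typical of blood and B cells, 8 (21.6%) had counts, 15 in all, and none in 3 or more samples. Of all 2207 miRNA-annotated genes, 64 (2.90%) had a count. The 2207 also hold predicted, tRNA and snoRNA genes, and the lists were chosen with earlier results known. The 2 shares are thus not of like sets and show no enrichment. Mir150, Mir142, Mir146 and Mir148a had 1 count each, while Mir155 and the Mir181 genes had none. The miR-17~92 cluster and its paralogous clusters, which promote lymphocyte survival, had 0 counts over 15 genes. In a single sample, 0 counts allow a share of up to 0.000378% to 0.00181% of the counts on genes, by sampling of the counted reads alone. The longest mature miRNA in the RefSeq table has 27 bases. If the trimming step set the minimum read length given above, reads of mature miRNAs were not kept. Reads over exons of 2 genes may also have gone uncounted. In either case 0 counts set no upper limit on a miRNA, and its absence from the EVs was not tested. Of 12 let-7 genes in the files only Mirlet7b (8.33%) had counts, 1 in isotype replicate 1 and 1 in anti-CD24 replicate 3. Of 19 miRNA genes typical of red cells, liver, muscle or nerve, 3 (15.8%) had counts, Mir144 and 1 count each of Mir124a-2 and Mir124a-3, which share a 32-base run. Among 16 protein-coding genes of miRNA processing and function, 12 had counts, 40 in all, led by Dicer1 with 9 and Tarbp2, a partner of Dicer, with 7. Argonaute genes Ago1, Ago3 and Ago4 had 2, 1 and 3 counts and Ago2 had none. No miRNA gene of these lists passed the filter of the test. Of the processing genes, Dicer1 and Tarbp2 passed it, and neither was called by edgeR or had an unadjusted p under 0.05.

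Detection was scattered over samples. Of the 56 genes, 40 had counts in a single sample, 11 in 2, 1 in 3, 1 in 5 and 3 in all 6. The genes counted in 5 or 6 samples were the tRNA genes and Snord43, and Mir877 was the gene counted in 3. Anti-CD24 replicate 2 alone held 16 of the 40 genes with counts in a single sample, against 3 to 6 in each other sample. Counts were confined to isotype samples for 15 genes, to anti-CD24 samples for 29, and 12 genes had counts in both. The mean depth of the anti-CD24 samples was above that of the isotype samples. The same split was not taken over all genes, so these numbers show nothing particular to the 56 genes.

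**Figure D4:**
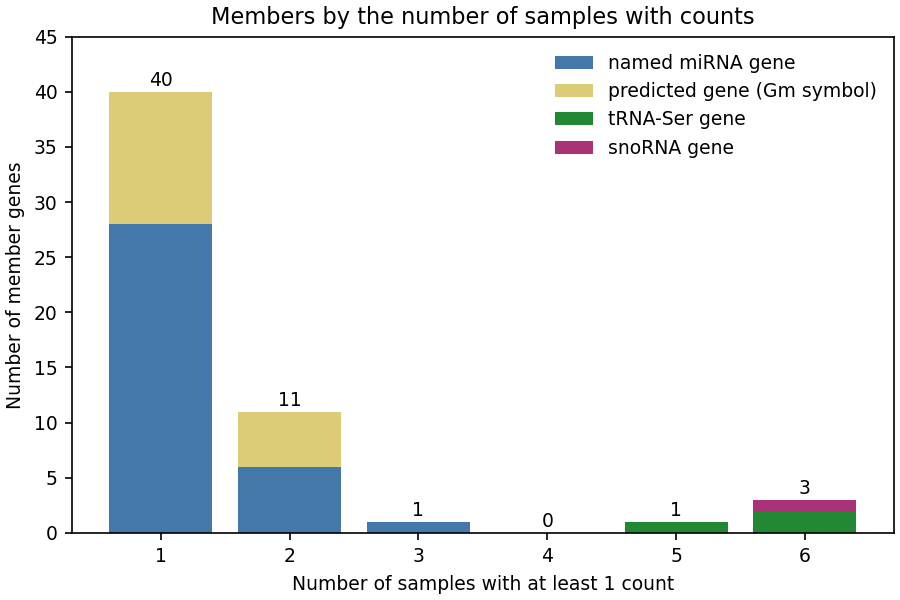
Number of the 56 genes by the number of samples in which they had at least 1 count, coloured by class. The bar for 1 sample holds 40 genes, all named miRNA or predicted genes, and the bars for 5 and 6 samples hold the tRNA genes and Snord43.

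The number of genes with a count was 12, 10 and 14 in isotype replicates 1 to 3 and 13, 27 and 12 in the anti-CD24 replicates. The isotype mean was 12 ± 2 (SD, n = 3) and the anti-CD24 mean 17.3 ± 8.4 (SD, n = 3), with anti-CD24 replicate 2 alone above 14. Expected numbers at 166129 counts, the smallest total, were 8.51, 10 and 8.75 for isotype and 5.69, 11.6 and 5.33 for anti-CD24. At equal depth the mean was thus lower after anti-CD24, 7.52 ± 3.49 (SD, n = 3) against 9.09 ± 0.80 (SD, n = 3). With a minimum of 3 counts the numbers were 4, 4 and 10 for isotype and 4, 8 and 4 for anti-CD24.

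**Figure D5:**
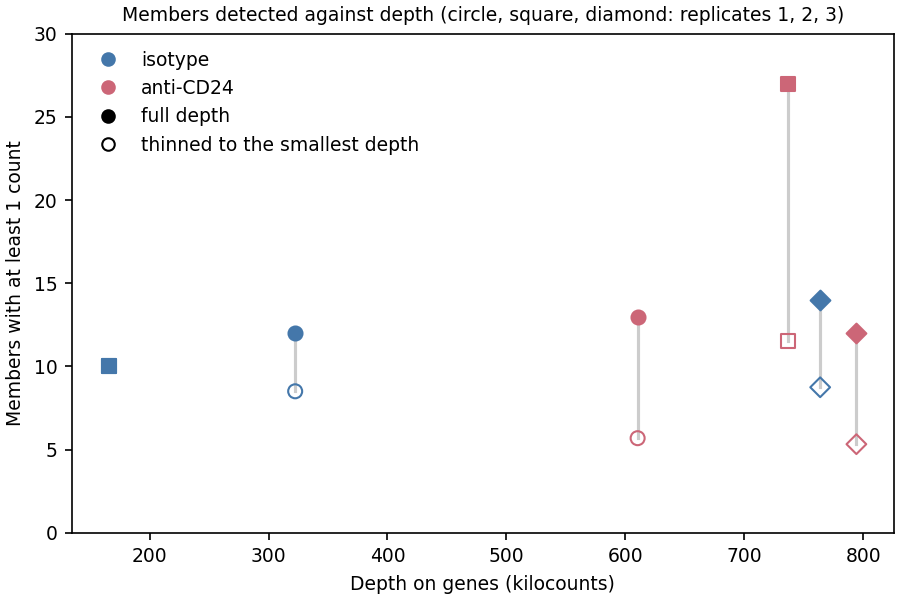
Number of the 56 genes with at least 1 count against the depth on genes (axis in kilocounts) for each sample, at full depth (filled) and thinned to the smallest depth (open). Anti-CD24 replicate 2 has 27 genes at full depth, the other samples 10 to 14, and at equal depth all lie between 5.33 and 11.6.

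Together the 56 genes had 69, 30 and 77 counts in the isotype samples and 46, 331 and 71 in the anti-CD24 samples. Their share of the counts outside rRNA and ribozyme genes was 0.248% (95% Wilson interval 0.196% to 0.314%), 0.192% (0.135% to 0.274%) and 0.112% (0.0894% to 0.140%) after isotype. After anti-CD24 it was 0.0712% (0.0534% to 0.0949%), 0.295% (0.265% to 0.329%) and 0.0872% (0.0691% to 0.110%). The intervals cover counting error only. The means were 0.184% ± 0.069 (SD, n = 3) and 0.151% ± 0.125 (SD, n = 3), a difference of -0.0327 percentage points that was smaller than either SD. Within the runs the difference was -0.177, 0.103 and -0.0245 percentage points. Over all counts on genes the sign turned, to 0.00396 percentage points, and the share of miRNA-annotated counts differed by -0.657 percentage points.

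By position, 12 of the 56 genes overlap an exon of another gene on their strand, 19 lie in an intron on their strand, 8 overlap a gene only on the opposite strand, and 17 overlap no other gene. In the union mode of htseq-count, reads over exons of 2 genes go to neither. Yet Mirlet7b, Mir5112, Mir6981 and Mir7068, whose whole sequence is also in 1 other annotated gene on their strand, had 2 counts each. Whether the annotation used for counting held the same overlaps, and whether counts were lost, was not tested. Of the 56 genes, 23 share at least 28 bases in a row with another annotated gene, 8 of them named and 12 predicted miRNA genes and 3 the tRNA genes. Counts of these genes are uncertain where a read fits both places.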

How the data were processed

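RNA of EVs from 3 isotype and 3 anti-CD24 stimulated cultures was analysed, grouped by their labels. The authors trimmed the IonTorrent reads (FASTX), aligned them with tmap, counted them on exons with htseq-count (HTSeq 0.5.4p5, union mode, stranded) and deposited raw counts per Ensembl gene, without normalization. The submitters' notes name GRCm38.p4 as the genome build. The 5 summary lines of each file were left out. Libraries held 166129 to 794185 counts on genes. A gene with at least 1 count was taken as detected, and 3 counts set the largest share given for a gene with 0 counts.

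Gene names, biotypes and coordinates were those of GENCODE M21, in which 419 of 47729 genes were not listed. The 56 genes and the gene lists were chosen with earlier results of these data known. Replicates are 3 cultures per condition. The counts of all genes were compared by edgeR 4.0.16, run under R 4.3.3 (quasi-likelihood test, TMM, condition only, 1 CPM in 3 samples). Benjamini-Hochberg adjustment at 0.05 was over all genes tested. The test was also run on simulated data with large changes. That run does not show how small a change would be found at the low counts of the 56 genes. The SE was derived from the log2 fold change and the F statistic. Shares and numbers of genes were compared without a test, since the genes were selected on these counts. Same replicate numbers mark the same run in the names of the deposited files. Deviations from the group means correlated at -0.030, -0.024 and -0.106 within the 3 pairs. Genes named were those with counts in all 6 samples, the 10 with the most counts, the 3 with the smallest p, those whose symbols point to no miRNA, and list genes with 3 or more counts, and others are said to be chosen afterwards or are counted with their list. Alternatives were DESeq2 1.42.0, the replicate block, no TMM, rRNA genes removed, other filters, identical genes once, other denominators and each sample left out. Other steps used Python 3.11.15, numpy 2.4.6, pandas 2.3.3 and scipy 1.17.1. Some marker genes and sequences are not reported here.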

Additional observations from a re-analysis of the deposited data

How the results depend on the processing

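None of the 56 genes was called by edgeR or DESeq2 under the 13 alternatives, in which 4 to 56 of them were tested. The smallest adjusted p among them ran from 0.179 (without anti-CD24 replicate 1, Snord43) to 0.987 (with the replicate block). The summed share, at -0.0327 percentage points, turned to 0.00396 over all counts on genes and moved to -0.657 over miRNA-annotated counts. Leaving out 1 sample gave -0.105 (without anti-CD24 replicate 2) to 0.00733 (without anti-CD24 replicate 1). The mean of the pairs, as a replicate block, is -0.0327 by construction when all pairs are complete, so it is no check of the value. The mean number of genes per sample, 14.7, moved to 5.67 at a minimum of 3 counts and to 8.30 at equal depth, and was 12.2 to 15.6 with 1 sample left out. The log2 fold change of n-TStga1 and Gm44456 turned to -0.30 with DESeq2 and -0.31 with at least 10 counts summed, and ran from -0.93 to 1.58 with 1 sample left out. That of n-TSaga9 turned to -0.22 and -0.20 under the same settings and ran from -0.64 to 1.67. The causes were not tested. Snord43 (0.36 to 2.20 with 1 sample left out) and Mir877 (0.65 to 2.26) kept their sign. Mir877 was tested in only 3 of those fits, each without a sample in which it had 0 counts. Without a sample that held its counts it fell below the filter, so those fits say little about its sign. With the rRNA and ribozyme genes removed Snord43 stood at 2.02 (unadjusted p = 0.0485, edgeR adjusted p = 0.450). With the replicate block, the n-TStga1 value was 0.35. The median of all genes ran from -0.97 to -0.01 over the settings. With 1 read worth up to 6.02 CPM, depth limits every comparison of genes with few counts.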
